A study of Mus musculus with 2 samples.

Results

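The Mir302/Mir367 cluster is a run of 5 microRNA (miRNA) genes, Mir302b, Mir302c, Mir302a, Mir302d and Mir367, on mouse chromosome 3. Its members were taken by gene symbol from the 1973 miRNA genes counted in 2 small RNA libraries of embryonic mouse heart. The rule itself uses no measured value, but the members were chosen with earlier results of these data known. Both libraries come from healthy B6NCrl embryos at embryonic day 15.5, with males and females pooled and no treatment or genetic change named in the labels. Replicate 1 is a pool of 78 hearts and replicate 2 a pool of 62, so there is 1 group with 2 biological replicates and no second condition. Each library is whole-heart RNA, so fewer cells with a miRNA and less of it per cell cannot be told apart.

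miRNAs are short RNAs cut from hairpins, and each hairpin can give a mature RNA from its 5′ arm (5p) and its 3′ arm (3p). They pair with messenger RNAs mainly through the seed, bases 2 to 8 counted from the 5′ end. The cluster is known as a single primary transcript that is abundant in pluripotent stem cells and early progenitors and declines as cells differentiate. In the embryonic mouse heart it has been linked to the proliferation of heart muscle cells.

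The mature sequences below, from RefSeq (GRCm38.p6), show what Mir302b, Mir302c and Mir302d share and where Mir367 differs, with the seed in capitals. All 5 hairpins matched the RefSeq table, which gave the 9 mature sequences printed and not miR-302a-3p.
mmu-miR-302b-3p: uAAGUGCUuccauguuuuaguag
mmu-miR-302d-3p: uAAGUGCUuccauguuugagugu
mmu-miR-302c-3p: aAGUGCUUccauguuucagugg
mmu-miR-367-3p: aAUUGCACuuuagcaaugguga
mmu-miR-302b-5p: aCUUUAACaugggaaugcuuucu
mmu-miR-302c-5p: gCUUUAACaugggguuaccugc
mmu-miR-302d-5p: aCUUUAACauggaggcacuugcu
mmu-miR-302a-5p: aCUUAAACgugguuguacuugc
mmu-miR-367-5p: aCUGUUGCuaacaugcaacuc
The 3p arms of Mir302b and Mir302d carry the same seed, and the annotated 3p arm of Mir302c starts 1 base later in the same stretch, so its bases 2 to 8 read differently. The longest stretch common to miR-302b-3p and miR-302d-3p was 17 bases, and miR-302c-3p shared 16 with each of them. The 5p arms of Mir302b, Mir302c and Mir302d share a seed that no other gene in the table carries. The seed of miR-302a-5p, CUUAAAC, is carried by no other gene in the table, and the 3p arm of Mir302a could not be compared. Neither arm of Mir367 shares its seed with a printed arm of a Mir302 gene.

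The seeds of the cluster recur in other miRNA families, and the following relatives from the same table are shown for that comparison. Mir291a, Mir294 and Mir295 of the Mir290 cluster, a hallmark of mouse embryonic stem cells, have the Mir302b seed, the Mir17 family of proliferation miRNAs has a seed displaced by 1 base, and the Mir25 and Mir92 genes have the seed of Mir367.
mmu-miR-294-3p: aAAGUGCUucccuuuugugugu
mmu-miR-17-5p: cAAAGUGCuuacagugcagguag
mmu-miR-25-3p: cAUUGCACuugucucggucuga

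The genes lie on the plus strand of GRCm38 between positions 127545228 and 127545807 of chromosome 3, a span of 580 bases. From 5′ to 3′, Mir302b (ENSMUSG00000076252.1) occupies 127545228 to 127545301, Mir302c (ENSMUSG00000065482.1) 127545363 to 127545430, and Mir302a (ENSMUSG00000065552.1) 127545496 to 127545564. Mir302d (ENSMUSG00000065447.1) occupies 127545624 to 127545689 and Mir367 (ENSMUSG00000065413.2) 127545733 to 127545807. The gaps between neighbouring hairpins were 43 to 65 bases. All 5 lie opposite the RNA-binding protein gene Larp7, which is on the minus strand, in the intron between its exons 8 and 9, and 0 of them overlap a Larp7 exon in GENCODE M21. The nearest edge of exon 8 of Larp7 lies 18 bases beyond the end of Mir367. RefSeq also lists a long noncoding RNA, Gm51018, over the whole cluster at positions 127545089 to 127546903.

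A level is a gene's reads on its own strand per 1000000 such reads over all miRNA genes (CPM), with the SD over both libraries after ±. Replicate 1 held 3439539 of these counts and replicate 2 held 5833156. A count of 0 allows a level of up to 3 counts, or 0.872 CPM in replicate 1 and 0.514 CPM in replicate 2. Intervals in brackets are exact binomial 95% intervals and cover counting error only. The replicates are pools, so their spread is between pools and not between single embryos. Under the heart label, the heart muscle list of Mir208a, Mir208b, Mir499 and Mir490 reached 62459 and 45593 CPM together. The muscle miRNAs Mir1a-1, Mir1b, Mir133a-1, Mir133a-2 and Mir133b, looked up after the list's values were seen, had 1 to 14 counts per library. All of these but Mir1b share 20 or more bases with another hairpin, and the part of reads with several matches in their low counts was not tested.

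The 4 Mir302 genes were all counted in both libraries, and Mir367 was not counted in either. Together the members had 3003 counts in replicate 1 (873 CPM, interval 842 to 905) and 4582 counts in replicate 2 (786 CPM, 763 to 809). That is 829 ± 61.9 CPM (n = 2), or 0.0829% ± 0.00619 of all counts.

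Mir302a was the most abundant member. It had 1215 counts in replicate 1 (353 CPM, interval 334 to 374) and 1885 in replicate 2 (323 CPM, 309 to 338), or 338 ± 21.3 CPM. Mir302d followed with 1037 counts (301 CPM, 283 to 320) and 1399 counts (240 CPM, 227 to 253), or 271 ± 43.6 CPM. The level of Mir302d was higher in replicate 1, and its intervals in the libraries do not overlap, whereas those of Mir302a do.

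Mir302b, the first hairpin of the cluster, had 630 counts in replicate 1 (183 CPM, interval 169 to 198) and 1110 in replicate 2 (190 CPM, 179 to 202), or 187 ± 5.04 CPM. Mir302c, the second hairpin, had 121 counts (35.2 CPM, 29.2 to 42.0) and 188 counts (32.2 CPM, 27.8 to 37.2), or 33.7 ± 2.09 CPM. For both genes the libraries lay within each other's counting intervals.

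By mean level Mir302a ranked 119, Mir302d 128, Mir302b 146 and Mir302c 241 among the 1973 counted genes. Among the 327 genes with at least 10 counts in both libraries, 63.6% lay below Mir302a, 60.9% below Mir302d, 55.4% below Mir302b and 26.3% below Mir302c. These genes therefore sat near the middle of the detected range, with Mir302c in its lower part. On the opposite strand, that of Larp7, all 5 members had 0 counts in both libraries, as did 90.5% of the 327 detected genes.

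Mir367, the last hairpin, had 0 counts in replicate 1 and 0 in replicate 2 on either strand. Set against the limit of 3 counts per library, Mir302a was at least 405-fold higher in replicate 1 and at least 628-fold higher in replicate 2. The corresponding bounds for the least abundant counted member, Mir302c, were at least 40.3-fold and at least 62.7-fold. These bounds hold at the set limit and leave out the counting error of Mir302a and Mir302c. The hairpin of Mir367 is printed here beside that of Mir302b, with both mature arms in capitals, because these are the hairpins at the ends of the cluster, the first counted and the last not.
Mir302b hairpin, chr3:127545228-127545301, plus strand: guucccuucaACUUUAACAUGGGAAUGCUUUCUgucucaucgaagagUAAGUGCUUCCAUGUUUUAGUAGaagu
Mir367 hairpin, chr3:127545733-127545807, plus strand: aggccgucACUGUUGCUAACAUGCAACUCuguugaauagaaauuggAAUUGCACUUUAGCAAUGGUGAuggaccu
Reads that match several places are in no gene count, and made up 33.0% of all reads in replicate 1 and 30.1% in replicate 2. The longest stretch that the Mir367 hairpin shares with any other annotated miRNA hairpin is 11 bases. The hairpins of Mir302a and Mir302b share 20 bases with each other, Mir302d shares 17 with Mir302b, and Mir302c shares 16 with Mir302d. With hairpins outside the cluster, none of the 5 shared more than 13 bases. Short reads that lie wholly in a shared stretch can therefore be missing from the counts of the Mir302 genes, which makes their levels and ratios uncertain by an amount the counts do not give. Matches of Mir367 reads outside annotated hairpins were not tested.

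The Mir367 hairpin is the longest of the 5 by 1 base and has the lowest predicted folding energy. It has 75 bases with 42.7% G and C and a minimum free energy of -34.5 kcal per mol (RNAfold). The 4 Mir302 hairpins have 66 to 74 bases with 39.2% to 47.1% G and C. Their minimum free energies ran from -31.7 kcal per mol for Mir302a to -23.3 kcal per mol for Mir302b. Over the hairpins of the 327 detected genes, the medians were 84 bases, 50.5% and -36.9 kcal per mol. Per base, the energy was -0.46 kcal per mol for Mir367 and -0.459 for Mir302a, nearly the same. It was -0.421 for Mir302c, -0.417 for Mir302d and -0.315 for Mir302b, against a median of -0.434 for the detected genes.

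The other clusters with a well-counted gene that held a gene without counts had more genes than the Mir302/Mir367 cluster. Clusters of 2 or more genes, with starts within 10 kb on the same strand and at least 1 gene with 1000 or more counts in both libraries, numbered 35, a definition chosen after the counts of Mir367 were seen. Of these, 4 held a gene at 0 in both libraries. They were the Mir302/Mir367 cluster with Mir367, a pair of runs on chromosome 12 (led by Mir127 and Mir487b, with Mir432, Mir453 and Mir654 at 0), and the run on chromosome 2 led by Mir467d, where 84 of 107 genes were at 0. The run on chromosome 2 thus held most of the 88 genes at 0 among the 239 in these clusters. Only 1 of its 84 genes at 0 shares no stretch of 20 bases with another hairpin, so the counts of the others can fall short. Of the 88 genes, 5 share no such stretch. Mir367 is 1 of them, and each of the 4 clusters holds at least 1. The clusters with a gene at 0 had 5, 13, 34 and 107 genes. Those of like size without one were led by Mir17 (6 genes), Mir532 (5) and Mir322 (7). All remaining clusters had only 2 to 4 genes, so 4 of 35 says little about clusters of its size. Among the clusters of 5 to 7 genes, only the Mir302/Mir367 cluster held a gene at 0. These clusters are too few for a conclusion about Mir367. Of all 1973 genes in the tables, 1286 were at 0 in both libraries.

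**Figure D1:**
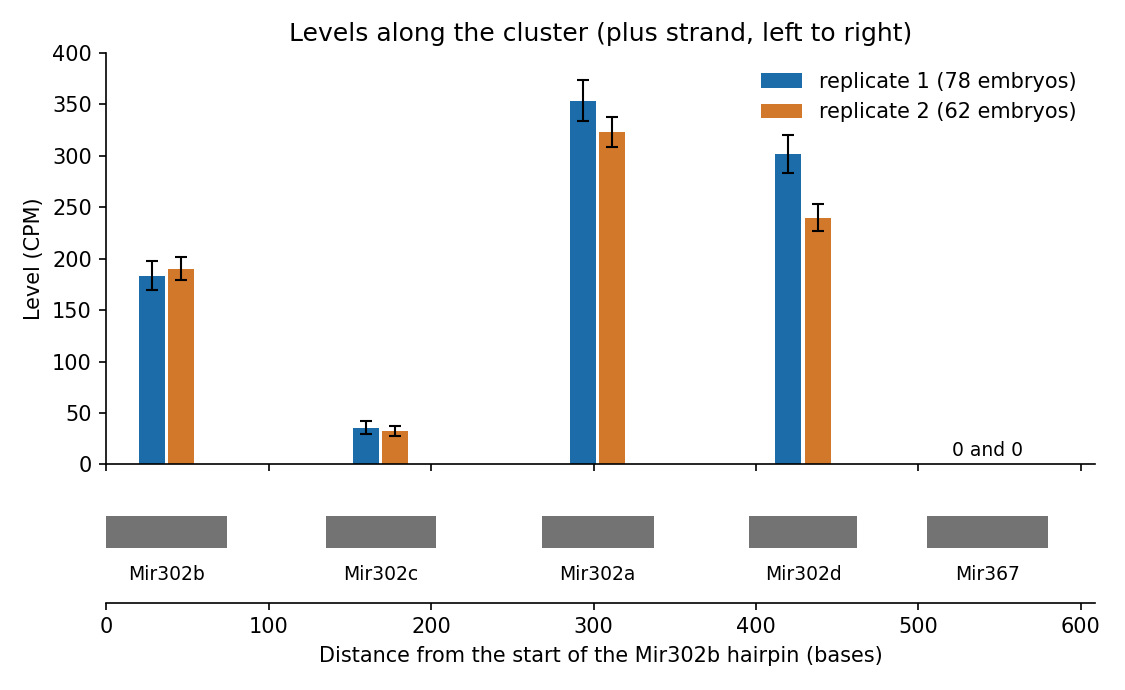
Level of each cluster gene (CPM, bars from 0, with exact binomial 95% intervals) in replicate 1 and replicate 2, placed at the middle of its hairpin, above a map of the 5 hairpins by distance in bases from the start of Mir302b. Mir302a and Mir302d stand highest, Mir302c lies low between them and Mir302b, and Mir367 at the 3′ end has 0 counts in both libraries.

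Levels did not follow the order of the hairpins along the locus, since Mir302c lay far below Mir302b before it and Mir302a and Mir302d after it. Within each library, ratios of counts between members do not depend on library size. Mir302a exceeded Mir302d by 1.17 times in replicate 1 (interval 1.08 to 1.27) and 1.35 times in replicate 2 (1.26 to 1.44), a log2 ratio of 0.33 ± 0.14 (n = 2). Mir302d exceeded Mir302b by 1.65 times (1.49 to 1.82) and 1.26 times (1.16 to 1.36), a log2 ratio of 0.53 ± 0.27. Mir302b exceeded Mir302c by 5.21 times (4.28 to 6.38) and 5.90 times (5.05 to 6.93), a log2 ratio of 2.47 ± 0.13.

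The order Mir302a, Mir302d, Mir302b, Mir302c was thus the same in both libraries, and each step between neighbours exceeded its SD. With 2 libraries the smallest p that a two-sided exact sign test can give is 0.5, so no test of these steps is given. Mir302a exceeded Mir302c by 10.04 and 10.03 times in replicates 1 and 2, and only the ratio of Mir302d to Mir302b, among the 5 ratios computed, differed between the libraries so far that its counting intervals do not overlap.

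The same shift appears in the shares of the cluster's counts. Mir302a held 40.5% in replicate 1 (interval 38.7% to 42.2%) and 41.1% in replicate 2 (39.7% to 42.6%). Mir302d held 34.5% (32.8% to 36.3%) and 30.5% (29.2% to 31.9%), and Mir302b 20.98% (19.5% to 22.5%) and 24.2% (23.0% to 25.5%). Mir302c held 4.03% (3.35% to 4.80%) and 4.10% (3.55% to 4.72%). Mir302a and Mir302c kept their shares within counting error, and the share of Mir302d was lower and that of Mir302b higher in replicate 2. For Mir367, the set limit of 3 counts is a share of 0.0999% and 0.0655%.

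**Figure D2:**
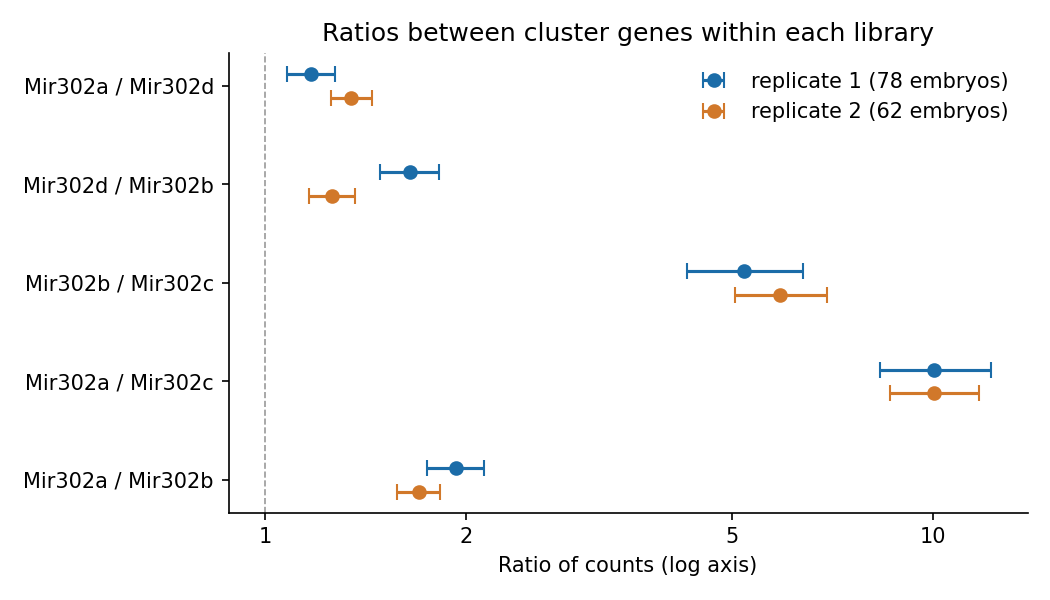
Ratio of counts between cluster genes (log axis, dashed line at 1) within replicate 1 and replicate 2, with exact binomial 95% intervals. Every interval lies above 1, and the libraries differ most for Mir302d over Mir302b, at 1.65 and 1.26.

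Among the genes listed in RefSeq with their 3p seed, Mir302b and Mir302d carried nearly all counts, but Mir302a was not placed. Counts are per hairpin, so both arms are included. The RefSeq table does not hold miR-302a-3p, so the 1215 and 1885 counts of Mir302a are left out of the shares below. The Mir302a hairpin shares 20 bases with that of Mir302b and 17 with that of Mir302d. Whether these stretches hold the seed was not tested. If Mir302a carries this seed, the shares of Mir302b and Mir302d are far lower. Those genes together had only 1667 and 2509 counts in replicates 1 and 2. Among the genes with the seed AAGUGCU in the RefSeq table (Mir302b, Mir302d, Mir291a, Mir294 and Mir295), Mir302b and Mir302d held 98.2% of 1697 counts in replicate 1 (interval 97.5% to 98.8%) and 96.9% of 2590 counts in replicate 2 (96.1% to 97.5%). The Mir290 cluster as a whole, with 7 of its 9 symbols among the counted genes, summed to 37.2 and 36.0 CPM. The Mir302/Mir367 cluster had 23.5 times its counts in replicate 1 (19.7 to 28.2) and 21.8 times in replicate 2 (19.0 to 25.2).

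Within the Mir290 cluster, Mir293 led with 63 and 83 counts in replicates 1 and 2 (18.3 and 14.2 CPM). Mir294 had 24 and 65 counts (6.98 and 11.1 CPM), and Mir292 had 32 and 45 (9.30 and 7.71 CPM). Mir291a had 4 and 13 counts, Mir291b 3 and 1, Mir295 2 and 3, and Mir290a 0 and 0. Even its leading gene was thus below Mir302c in both libraries. The hairpins of Mir291a and Mir291b share 20 bases with another hairpin, so their counts can fall short.

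The seed of Mir367 was well represented by other genes. The counted genes with the seed AUUGCAC (Mir25, Mir32, Mir363, Mir92-1, Mir92-2 and Mir92b) had 6796 counts in replicate 1 and 14797 in replicate 2, none of them from Mir367, which allows Mir367 a share of up to 0.0441% and 0.0203%. Mir92-1, of the Mir17-92 cluster, led them at 1508 and 1748 CPM, and Mir25 followed at 254 and 290 CPM. Mir32 had 90.1 and 94.6 CPM, and Mir92b 66.3 and 151 CPM. Mir363 had 28.2 and 157 CPM and Mir92-2 29.1 and 95.7 CPM. Every one of these 6 genes was thus counted in both libraries, in contrast to Mir367. Mir92-1 and Mir92-2 share 20 or more bases, so their counts can fall short.

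The Mir17 family, whose seed AAAGUGC overlaps that of Mir302b in 6 bases, was far more abundant. Its 6 genes had 33.3 times the counts of the Mir302/Mir367 cluster in replicate 1 (interval 32.1 to 34.5) and 40.03 times in replicate 2 (38.9 to 41.2). Mir17 itself had 14688 and 14992 CPM, Mir93 5663 and 5935, Mir20a 5515 and 6048, and Mir106b 3107 and 4013. Of the 2 members on the X chromosome, Mir106a had 62.5 and 251 CPM, between Mir302c and Mir302a in both libraries. Mir20b had 32.3 and 208 CPM, below Mir302c in replicate 1 and above it in replicate 2.

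**Figure D3:**
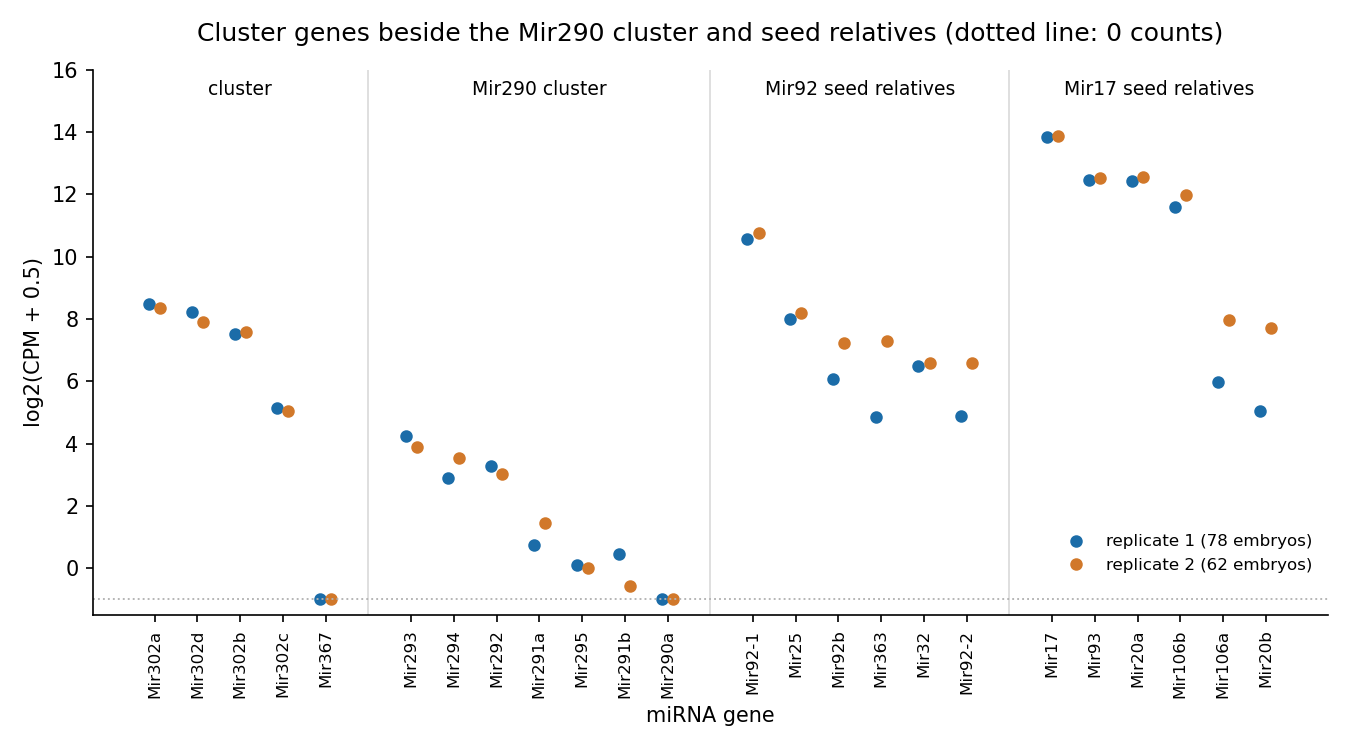
Level of each gene as log2(CPM + 0.5) in replicate 1 and replicate 2, for the 5 cluster genes, the 7 counted Mir290 cluster genes, and the seed relatives of Mir367 and of Mir17; the dotted line marks 0 counts. The 4 counted Mir302 genes lie above every Mir290 cluster gene and below Mir92-1, Mir17, Mir93, Mir20a and Mir106b, and Mir367 lies on the dotted line.

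To see which members differed between the pools by more than counting noise, replicate 1 was set against replicate 2 for each of 413 genes. The test was the exact conditional binomial test, two-sided, on TMM-scaled library sizes and with Benjamini-Hochberg adjustment; it compares these pools and no conditions. Of the 4 members tested, 2 passed, Mir302a and Mir302d, both higher in replicate 1, while 46.5% of all tested genes were called (90 higher in replicate 1 and 102 in replicate 2). Among the 238 genes with at least 100 counts in both libraries, as all 4 members have, 70.2% were called. The members' count is thus no result about the cluster. By total counts the split over all genes was 48 and 155, and by DESeq2 size factors 102 and 86.

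On the TMM scale Mir302d had a log2 ratio of replicate 1 to replicate 2 of 0.50 (interval 0.39 to 0.62, adjusted p = 2.22e-16 in the exact test). Mir302a had 0.30 (0.20 to 0.41, adjusted p = 7.50e-08 in the exact test). Mir302b had 0.12 (-0.025 to 0.26, adjusted p = 0.187 in the exact test) and Mir302c 0.30 (-0.042 to 0.64, adjusted p = 0.148 in the exact test), neither past the threshold of 0.05. Mir367, with 0 counts, was not tested.

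The sum over the cluster had a log2 ratio of 0.33 (0.26 to 0.39). The median over the 4 members was 0.30, and over all 413 genes it was -0.035. Scaling by total counts moves every ratio down by 0.17, which leaves Mir302a at 0.13 and Mir302d at 0.33, both still called, and turns Mir302b to -0.055, not past the threshold.

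The pools also differed in miRNAs of other tissues, and the part of these in the members' ratios was not tested. All 7 epithelial miRNAs listed (Mir200a, Mir200b, Mir200c, Mir141, Mir429, Mir203 and Mir205) were called higher in replicate 2, where their sum was 6297 CPM against 1821 CPM in replicate 1, and none was at 0. The neural list reached 573 CPM in replicate 2, against 158 in replicate 1. Of its 8 matched genes, Mir137, Mir128-1 and Mir128-2 were called higher in replicate 2, Mir9-3 was not called, and 4 were at 0 in both, Mir9-2 and the 3 genes of the neuronal Mir124a, whose hairpins share 20 or more bases with another. In the heart muscle list, 3 of 4 genes were called higher in replicate 1. These counts of calls were the same by total counts and by DESeq2 size factors. Over all 413 tested genes, 21.8% were called higher in replicate 1 and 24.7% higher in replicate 2 with TMM scaling. Among genes with at least 100 counts in both libraries, 70.2% were called in either direction.

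With TMM scaling, most calls in the vascular and blood lists were higher in replicate 1, but these lists hold only 1, 2 and 3 genes. Over all tested genes 46.5% were called, and 70.2% of those with at least 100 counts in both libraries. The endothelial Mir126a had 79217 CPM in replicate 1 and 67775 in replicate 2, a log2 ratio of 0.40, and was called under all 3 scalings. Of the smooth muscle pair, Mir145a had 1110 and 899 CPM (log2 ratio 0.48), and Mir143 had 82454 and 88393 CPM (0.073). Both were called higher in replicate 1 with TMM scaling, but by total counts 1 was called in each direction. Of the erythroid list, Mir451a had 1975 and 564 CPM (1.98), Mir144 401 and 422 (0.100) and Mir486 80.8 and 110 (-0.27). Of these, Mir451a was called higher in replicate 1 and Mir486 higher in replicate 2, whereas by DESeq2 size factors 2 were called, both higher in replicate 1. None of the genes of these lists was at 0.

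Among the Mir290 cluster and the seed relatives, 0 of the 4 Mir290 cluster genes tested were called (1 by DESeq2 size factors). Of the 6 seed relatives of Mir367, 3 were called, all higher in replicate 2 (5 by total counts). The Mir17 list split into 3 genes higher in each replicate, but all 6 were called higher in replicate 2 by total counts. Over all tested genes, 46.5% were called, 49.2% by total counts and 45.5% by DESeq2 size factors.

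**Figure D4:**
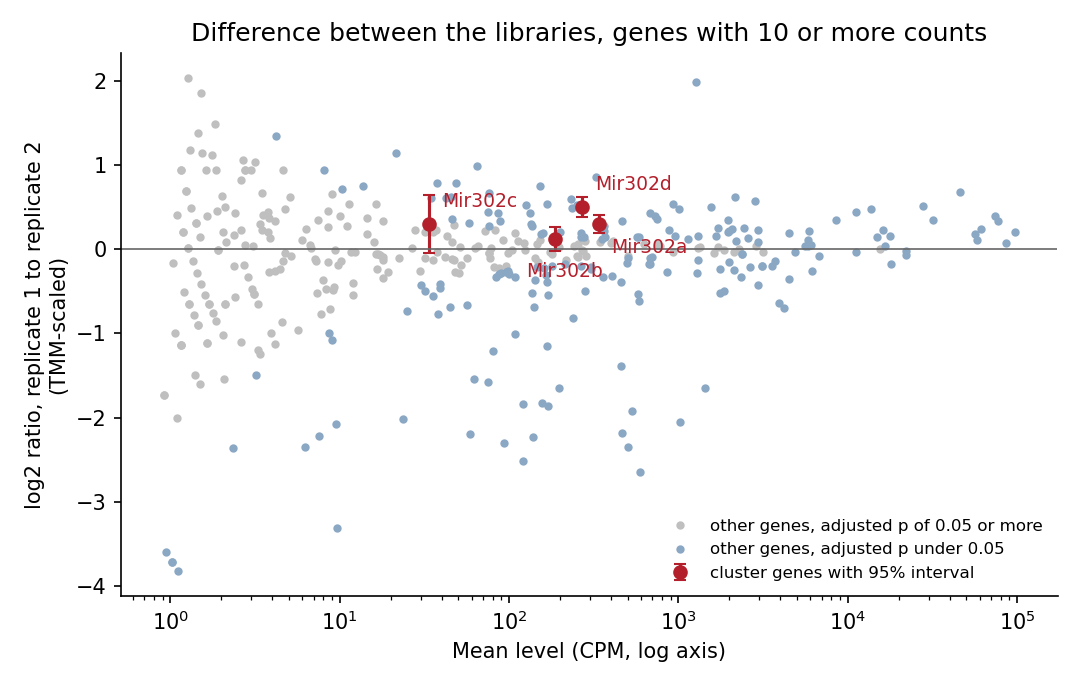
Log2 ratio of replicate 1 to replicate 2 on TMM-scaled library sizes against mean level (CPM, log axis) for the 413 genes with 10 or more counts in all, with the 4 counted cluster genes and their 95% intervals in red. Mir302a and Mir302d lie above 0 at 0.30 and 0.50, and the intervals of Mir302b and Mir302c cross 0.

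The genes outside the cluster with levels most like those of Mir302a in both libraries were Mir339, Mir195a, Mir34c, Mir199b and Mir24-2. Likeness is the straight-line distance in log2(CPM + 0.5) over the 2 libraries, and was 0.16 for the first 4 and 0.21 for Mir24-2. For comparison, Mir302d was 0.49 and Mir302b 1.21 from Mir302a. Mir339 had 348 and 360 CPM in replicates 1 and 2, and Mir195a, of the Mir15 seed family, had 378 and 353 CPM. Mir34c, of the Mir34 family of p53 targets, had 334 and 356 CPM, Mir199b 368 and 359 CPM, and Mir24-2 365 and 372 CPM. Mir302a was within this range in replicate 1 and below all 5 in replicate 2.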

How the data were processed

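Counts deposited by the authors for 2 pools of hearts were used. Per the text files deposited beside them, reads were placed on mm10 and counted on GENCODE M4; which aligner, trimming and counter they used was not given in the sources used here. Values in the deposited tables are raw counts of reads for each hairpin, arms not told apart, on either strand, the strand of the gene (used here) and the opposite strand; the order of the columns was read from the values. Lines that name no gene were left out. Members and lists were chosen with earlier results of these data known.

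Gene IDs without version were matched to GENCODE M21 (same assembly), which gave symbols for 1894 of 1973. CPM used all counts on the gene's strand, 48.7% and 49.7% of 7056606 and 11735546 reads. All reads here means those unmapped, matching several places, in no gene or counted. This total has no class for reads that overlap several genes. Intervals are Clopper-Pearson. Genes with at least 10 counts summed entered the exact conditional binomial test across all genes, at TMM-scaled library sizes (edgeR 4.0.16, R 4.3.3; factors 0.942 and 1.06). Alternatives were total counts, DESeq2 1.42.0 size factors, other count minimums, all reads as denominator, the either-strand counts and hairpin length. Fitted log2 ratios of single genes used a pseudocount of 0.5. Hairpins were folded with RNAfold 2.7.2 and searched for stretches of 20 shared bases. Python 3.11.15 and scipy 1.17.1 were used. The test was checked on simulated counts with counting noise only, at total-count library sizes. That check does not cover TMM scaling or spread between pools. Named genes were the 5 members, the genes of the fixed lists and the 5 genes nearest to Mir302a in level. The other miRNA clusters with a gene at 0, Mir1 and Mir133 were named after their values were seen.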

Additional observations from a re-analysis of the deposited data

How the results depend on the processing

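Per 1000000 of all reads, the cluster sum was 408, Mir302a 166, Mir302d 133, Mir302b 91.9 and Mir302c 16.6. With the either-strand counts Mir302b had 177 CPM. Other levels moved by no more than their SD under these counts and under TMM scaling, and Mir367 stayed at 0 in all. By total counts the log2 ratio of replicate 1 to replicate 2 was 0.15 for the cluster sum and -0.055 for Mir302b, which turned its direction without passing the threshold (adjusted p = 0.573 in the exact test). The members called were 2 under every scaling and count minimum tried. Over all genes, 180 of 687 were called without a count minimum and 187 of 303 with at least 50 counts. Leaving out genes that share 20 bases drops Mir302b and Mir291a. The share of the listed AAGUGCU genes' counts held by the cluster, then by Mir302d alone, was 96.5%, with Mir302a again not placed. Leaving out either library, the cluster sum ranged from 786 to 873 CPM, Mir302a from 323 to 353, Mir302d from 240 to 301, Mir302b from 183 to 190 and Mir302c from 32.2 to 35.2. Per 100 bases of hairpin the order of the members was the same, with log2 steps of 0.27, 0.69 and 2.35. No paired analysis was possible because there is 1 group. The ratio between the libraries has no value without one of them.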
